A study of Mus musculus with 6 samples.

Results

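Newly made RNA was measured in 3 untreated libraries of mouse embryonic stem cells held for 24 h under an inhibitor of the FGF receptors, and these 3 of the 6 libraries of the series are described here. The members are the untreated libraries of clones a, b and c, chosen by their labels, and all 25899 gene symbols of the count table were examined in each. The cells are of the E14tg2a line (129SV background) and carry a stably integrated cRAF-ErT2 cassette, a RAF kinase fused to an oestrogen receptor domain that 4-hydroxytamoxifen (4OHT) can switch on. No 4OHT was given to these cultures. They had been grown with serum, LIF and 2 µM Chir99021, a GSK3 inhibitor. Chir99021 is not named for the last 24 h, when serum and LIF were combined with PD173074, the FGF receptor inhibitor, at 250 nM. RNA was labelled with 5 mM ethynyl uridine for 15 min and captured by click chemistry (EU-seq), so that the libraries hold mainly RNA made in that window. The other 3 libraries, from cells given 4OHT for 2 h, were not used. Each clone gives 1 untreated library, so the spread between libraries joins differences between clones with differences between preparations, and nothing in the labels says that the cultures were grown on separate days.

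Mouse embryonic stem cells make their own FGF4, which signals through FGF receptors, RAS, RAF and MEK to the kinases ERK1 and ERK2. That signal readies the cells to leave the naive state, and blocking it favours factors such as NANOG, ESRRB, KLF4 and TBX3. LIF acts through its receptor and STAT3 to hold the naive state, and ERK targets include immediate early genes such as Egr1 and feedback inhibitors such as the Sprouty and DUSP families.

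The libraries hold 11549152 counts in clone a, 12168380 in clone b and 9745747 in clone c. Levels are given in CPM, a gene's counts scaled to a fixed library total, after TMM scaling, whose factors were 1.01, 1.01 and 0.983, and values in a row are in the order a, b, c. An observed count of 0 allows up to 3 counts, which is 0.258, 0.244 and 0.313 CPM, and this floor covers counting error only. Clone c stood apart from the other 2 libraries. The variation between libraries beyond counting noise, given by edgeR as a biological coefficient of variation, was 8.16% over all 3 and 4.16% between a and b alone. With clone c and either of the others it was 8.94% or 10.5%. The mean chi-square per gene was 2.44 between a and b, 10.8 between a and c and 11.3 between b and c, so that no library was a copy of another.

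The cells matched their label. All 9 marker genes of embryonic stem cells were transcribed at 1 CPM or more in every library, with summed levels of 3118, 2992 and 3041 CPM. Of 9 marker genes of feeder cells or fibroblasts none reached that level, and they summed to 1.72, 1.54 and 1.67 CPM. The wider list of 18 fibroblast and feeder genes, from which they come, had 5 transcribed and summed to 603, 587 and 463 CPM, mostly from Fn1. Marker genes of primitive endoderm summed to 7.84, 9.83 and 11.4 CPM, with Sox17, Sox7 and Foxa2 each below 1 CPM in the mean. The wider primitive endoderm list of 23 genes summed to 809, 720 and 836 CPM, led by Lamc1, Lamb1, Col4a1 and Lama1. The 4 markers of the 2-cell-like state summed to 0.258, 0.244 and 0.209 CPM. Trophoblast markers summed to 24.3, 25.3 and 36.3 CPM, mostly from Gata3, while Cdx2 and Elf5 lay below 1 CPM. The wider trophoblast list of 17 genes summed to 279, 285 and 314 CPM, led by Tfap2c and Tead4. Mesoderm markers summed to 11.1, 11.5 and 11.4 CPM, mostly from Tbx6, with Mesp1 at 0. Neural markers summed to 8.53, 7.47 and 6.47 CPM, with Olig2 at 0. The wider lists of 18 genes each summed to 17.7, 18.3 and 21.1 CPM for mesoderm and 64.7, 69.1 and 71.8 CPM for neural genes. Blood markers summed to 2.58, 2.27 and 2.19 CPM, nearly all from Cd3e.

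Transcription was spread over a large part of the genome. At 1 CPM or more in each library stood 13449 genes, which is 51.9% of all symbols, and 58.5% of the 22787 genes that have some span outside other genes. Of the 21720 protein-coding genes, 13135 (60.5%) reached that level. The counts were shared unequally: 1116, 1139 and 1022 genes held 50% of the counts of a library, and 5900, 5901 and 5888 genes held 90%. The 2500 genes in the band from 100 CPM up to 10 times that level gave 50.4% of all counts, and the 20 genes above it gave 18.3%.

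**Figure D1:**
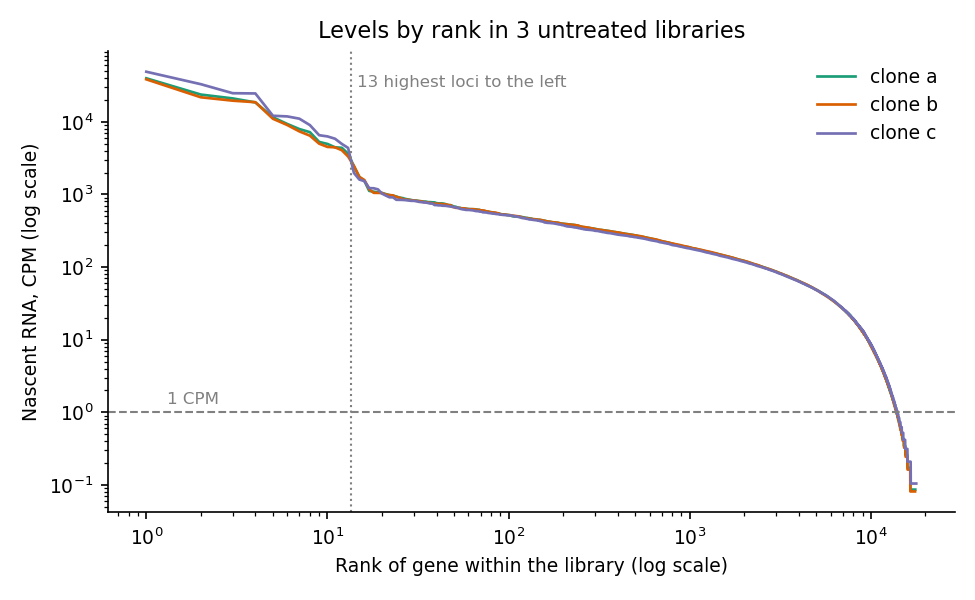
CPM of each gene with a count (log scale) against its rank within the library (log scale), 1 line per clone. A step separates the 13 highest loci, which lie higher in clone c, from the rest, and beyond it the 3 lines run together down to 1 CPM and below.

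The top of the ranking was a small set of loci set off from all others. Cdk8, a kinase of the Mediator complex (chr5:146231230-146302874, GRCm38), had 39719, 38436 and 48894 CPM, which was 3.99%, 3.89% and 4.81% of all counts. Lars2, the mitochondrial leucyl-tRNA synthetase (chr9:123366927-123462666), followed with 23703, 21753 and 32938 CPM. Jarid2, a partner of the Polycomb complex PRC2 (chr13:44729474-44921643), had 20986, 19532 and 24751 CPM. Others of the set were Zc3h7a with a mean of 20549, Taco1 with 11469, Camk1d with 10152, Il31ra with 7544, Kpna1 with 5441, Il1rapl1 with 5266, Gphn with 4912, Fgfr2 with 4622 and Cd44 with 3778 CPM. The 14th symbol, Gm47283 on chromosome Y, stood at 2295 CPM. Together the 13 loci took 16.2% of counts in clone a, 15.5% in b and 19.97% in c, and each was higher in c than in a, by 1.03 to 1.43 times. Counts per gene do not show where in a locus the reads lie, so a level of such a locus cannot be read as transcription of the whole named gene.

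The genes next in rank had levels closer to one another. Jade1, a subunit of a histone acetyltransferase complex, had 1743, 1736 and 1601 CPM. Hnrnpa2b1, an RNA-binding protein, had 1526, 1576 and 1524 CPM, a spread of 29.5 (SD, n = 3) around a mean of 1542. The nucleolar genes Ncl and Npm1 had means of 1172 ± 51.3 and 1097 ± 66.3 CPM (SD, n = 3), and the chaperone Hsp90ab1 had 1091 ± 109. Tet1, which oxidises methylated cytosine, had 1089, 1047 and 912 CPM. Also within the first 25 were Serbp1, Dst, Zmynd8 and Tmtc2, with means from 973 down to 899.7 CPM. Among these 10 genes clone c was lowest for Jade1, Hnrnpa2b1, Tet1, Serbp1, Dst and Zmynd8 and highest for Ncl, Npm1, Hsp90ab1 and Tmtc2.

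Because strand is not stated for the counts, reads in overlapping genes cannot be assigned with certainty. Stretches shared with another gene may also go uncounted, since 99.7% of genes wholly inside others had no count. Both limits touch Fgfr2 (53.3% of its span inside other genes), Gata3 (25.2%), Trim28 (19.2%) and Ctnnb1 (16.5%). Long genes collect more counts, so levels between genes were compared per length. The length used was the part of a gene's annotated span that no other gene of the table covers. Taco1 then ranked first with 1519 CPM per kb, before Cdk8 with 591 and Zc3h7a with 516, and Lars2 was 5th with 273. Of the first 25 by CPM only 8 were among the first 25 per kb. Hist1h1a followed with 242 and Hist1h1b with 228 CPM per kb, both linker histones, and then Hsp90ab1, Actb with 174 and Hnrnpa2b1. Sox2, a single-exon gene of the core pluripotency circuit, ranked 13th with 142 CPM per kb, and Dppa5a, a naive-state RNA-binding protein, ranked 15th. Ribosomal protein genes Rps12, Rplp1, Rpl41, Rps9, Rps21 and Rpl8 were also among these 25. Fgfr2, whose annotated span runs over 2961 kb, fell from rank 12 by CPM to rank 3182 per kb, at 3.34 CPM per kb. Per kb of exon, Taco1, Cdk8, Lars2 and Zc3h7a were again among the first 5, with 8292, 4307, 2357 and 2243 CPM per kb.

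Naive pluripotency factors were high in all 3 libraries: 17 of 19 were transcribed, against 51.9% of all genes. The list's median of 137 CPM lay at the 93.6th percentile of all genes. Esrrb, an orphan nuclear receptor (chr12:86361117-86521628), had 783, 728 and 589 CPM, lowest in clone c. Zfp42, known as Rex1, had 653, 654 and 750 CPM, highest in c. Nanog (chr6:122707489-122714633) had 341, 319 and 356 CPM. Among the other naive factors, Fbxo15 had a mean of 626, Nr5a2 270, Tfcp2l1 266, Tbx3 176, Klf5 173 and Klf4 132 CPM. Klf2 had 99.5, 109 and 137 CPM, so that the Krüppel-like factors ranked Klf5, Klf4, Klf2 by their means. The libraries of Klf4 and Klf2 overlap, at 132 ± 10.2 and 115 ± 19.2 CPM (SD, n = 3). Prdm14, which holds back FGF receptor signalling, was lower at 32.3, 31.8 and 23.8 CPM, and the lowest of the list were Dppa3 with 4.79, Gbx2 with 0.982 and Khdc3 with 0.0967 CPM. Khdc3 has 75.6% of its span inside Gm20509, so that its level is uncertain.

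The core factors varied less between libraries than the naive factors, but no less than other genes of their level. All 18 members of the core and general list were transcribed, with a median of 179 CPM. Their median CV between libraries was 5.17%, against 13.8% for the naive list. All genes in the band of level that holds this median of 179 CPM had a median CV of 5.15%. Pou5f1, which encodes OCT4 (chr17:35506018-35510772), had 187, 188 and 188 CPM. Sox2 had 296, 288 and 292 CPM. Trim71, a regulator of mRNA stability, led the list with 751, 739 and 682 CPM, and Rif1 had 556, Trim28 517, L1td1 452 and Sall4 380 CPM in the mean. The lowest were Utf1 with 25.2, 26.0 and 42.9 CPM and Foxd3 with 17.9 CPM.

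**Figure D2:**
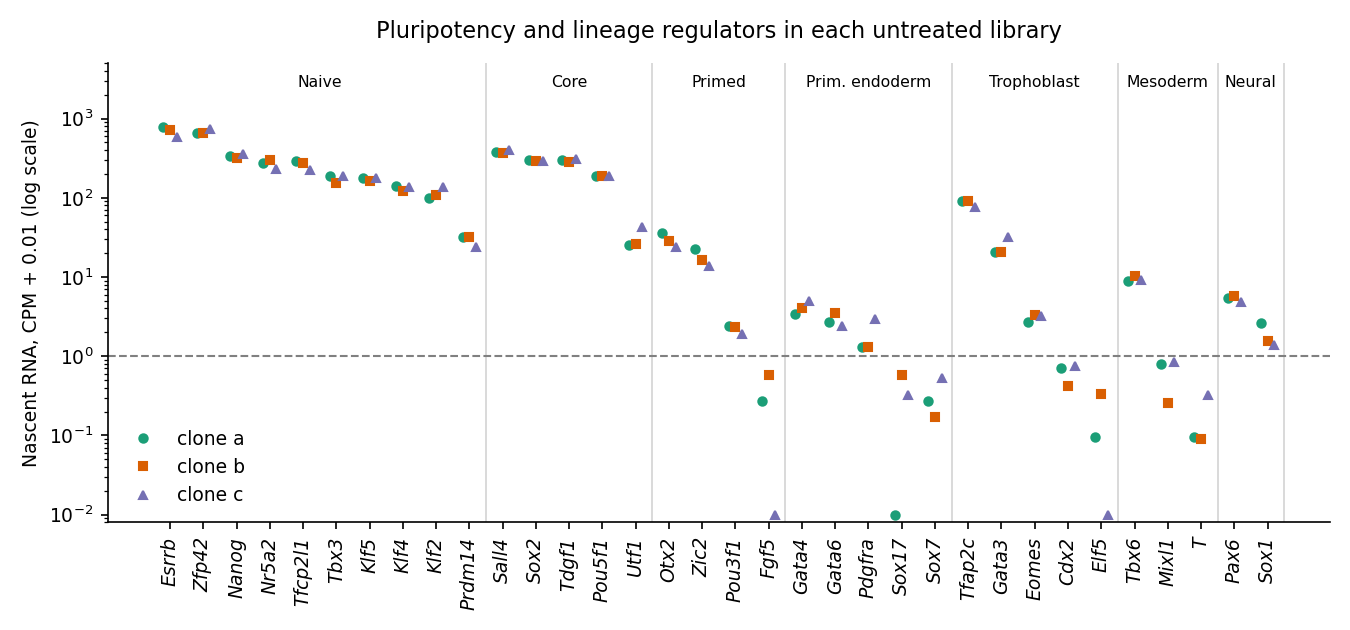
CPM plus 0.01 (log scale) of pluripotency and lineage regulators, grouped by list, with 1 symbol per clone and the dashed line at 1 CPM. The naive and core factors drawn lie between about 20 and 800 CPM in all 3 libraries, while Fgf5, Sox17, Cdx2, Elf5, Mixl1 and T lie below 1 CPM and points on the lower edge have no count.

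Genes of the later, primed epiblast were present at lower levels. Of 18, 15 (83.3%) were transcribed, against 51.9% of all genes, with a median of 8.42 CPM. Etv5, an ETS factor that also reports FGF signalling, was the highest with 340, 315 and 327 CPM, followed by the DNA methyltransferase Dnmt3b with 88.6 ± 1.47 CPM (SD, n = 3). Otx2, which drives the exit from the naive state, had 36.0, 28.6 and 23.7 CPM. Pou3f1 had 2.41, 2.36 and 1.88 CPM. Fgf5, the classical marker of the primed state, had 3, 7 and 0 counts, or 0.276 CPM in the mean, which is near the floor.

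The medians of the extra-embryonic lists lay near or above that of all genes, but several of their defining factors were low. Of all genes 51.9% were transcribed, of genes with span of their own 58.5% and of protein-coding genes 60.5%. In such pooled cells a low level cannot be told apart between a few cells with the RNA and little RNA in every cell. In the primitive endoderm list 13 of 23 (56.5%) were transcribed, with a median at the 50.1st percentile of all genes. By library the list's median was 1.38, 1.46 and 2.40 CPM, against 1.72, 1.79 and 1.88 CPM for all genes. Among genes with span of their own the list's median lay at the 43.8th percentile. The list was led by the basement membrane genes Lamc1 with 227, Lamb1 with 146 and Col4a1 with 127 CPM. Its transcription factors were low: Gata4 had 3.44, 4.06 and 5.01 CPM, Gata6 had 2.67, 3.49 and 2.40 CPM, and Sox17 had 0, 7 and 3 counts. Afp, which encodes a secreted protein, had no count. In the trophoblast list 12 of 17 (70.6%) were transcribed, with a median of 4.42 CPM. Tfap2c had 86.0, Tead4 81.0 and Gata3 24.3 CPM in the mean, whereas Cdx2, the factor that founds the trophoblast lineage, had 8, 5 and 7 counts, or 0.609 CPM. Tpbpa, a placental gene, had no count.

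Genes of the embryonic germ layers were lower still. In the primitive streak and mesoderm list 3 of 18 were transcribed, against 51.9% of all genes. The median was 0.257 CPM, with Tbx6 highest at 9.43 and T, the gene of Brachyury, at 1, 1 and 3 counts. Mesp1, Msgn1 and Myod1 had no count. In the neural list 7 of 18 were transcribed, with Map2 at 25.4 and Nes at 18.1, 20.6 and 21.4 CPM. Pax6 had 5.34, 5.77 and 4.80 CPM and Sox1 2.58, 1.54 and 1.36 CPM. Of 14 genes of the 2-cell-like state 0 were transcribed, and the highest, Zscan4d, had 0.152 CPM. Fn1, the fibronectin gene, was high at 579, 564 and 436 CPM although it was set among the fibroblast genes, while Col1a1 had 0.276, Col3a1 0.11 and Col1a2 0.0861 CPM, and Postn and Lum had no count. Germ cell genes had a median of 4.11 CPM, led by Prdm1 with 140 CPM.

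Fgf4 (chr7:144847367-144865243) was the leading ligand with 291, 258 and 307 CPM, next to Fgf10 with 26.2 and Fgf12 with 15.1 CPM in the mean. Of 22 ligand genes 11 were transcribed, a share near the 51.9% of all genes and below the 60.5% of protein-coding genes. Fgfr1 had 148, 182 and 199 CPM and Fgfr2 4456, 4451 and 4959 CPM, while Fgfr3 had 2.79 and Fgfr4 1.87 CPM. Per kb of span outside other genes, Fgfr1 had 2.84 and Fgfr2 3.34 CPM per kb. Fgfr2 belongs to the small set of loci at the top of the ranking. The level of such a locus cannot be read as transcription of the whole named gene, so Fgfr2 was not ranked against Fgfr1. Among the adaptors, Gab1 had 545, 613 and 663 CPM, Grb2 154, Sos1 138 and Frs2 129 CPM. Fgfr1 and Gab1 lie on chromosome 8, where clone c read higher than clone a in general. All 13 genes of the ERK cascade were transcribed, among them Braf with 220 and Hras with 19.7 CPM. Whether reads from the cassette are counted with Esr1 was not tested. Esr1 had 38.1, 36.3 and 40.9 CPM, or 0.0975 CPM per kb.

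Most targets and feedback genes of ERK were transcribed under the inhibitor: 22 of 26 (84.6%) passed 1 CPM in every library, against 51.9% of all genes. Their median of 14.3 CPM lay at the 66.1st percentile of all genes. Etv5 with 327 and Spred2 with 218 CPM led. Egr1, an immediate early transcription factor, had 57.6, 63.2 and 91.5 CPM. The ERK inhibitors Spry2, Spry4 and Dusp6 had 68.4, 42.3 and 31.8 CPM, and Ier2 had 66.0, 74.6 and 99.2 CPM. Fos had 4.74, 3.74 and 5.01 CPM, Etv4 5.34, 6.01 and 9.08 CPM, and Egr3 0.195 CPM. No library without the inhibitor is in the series, so that these levels have no reference.

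Most genes of the LIF, the WNT, and the NODAL and BMP lists were transcribed, where 51.9% of all genes were. All 16 genes of the LIF list were transcribed: Lifr had 222, 223 and 218 CPM, Il6st 172, Stat3 127 and the feedback inhibitor Socs3 82.4 CPM. In the WNT list 15 of 19 were transcribed, with Tcf7l1, a repressor of WNT targets, at 557 CPM, Gsk3b at 291 and Ctnnb1 at 268 CPM. WNT targets were lower: Axin2 had 9.56, 11.2 and 16.7 CPM, Lef1 5.04 CPM and Sp5 0.0619 CPM. Chir99021 is not named for the last medium, and whether that bears on these levels was not tested. In the NODAL and BMP list 24 of 25 were transcribed. Smad7 had 411, Lefty1 173, Lefty2 162 and Nodal 78.5 CPM, where Lefty1 and Lefty2 are near copies whose reads may not be told apart. The BMP target Id1 had 27.3 ± 14.2 CPM (SD, n = 3) and Id3 15.2, 15.3 and 29.5 CPM, both highest in clone c.

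Most genes of the chromatin and growth lists were transcribed, where 51.9% of all genes were. All 18 Polycomb genes were transcribed, with Cbx7 at 549, Mtf2 at 424, Suz12 at 274 and Ezh2 at 243 CPM beside the Jarid2 locus. The methylation list had 12 of 13 transcribed, with Dnmt1 at 234 and Dnmt3l at 171 CPM. All 20 genes of the transcription machinery were transcribed, with a median of 118 CPM, among them Polr2a, the largest subunit of RNA polymerase II, with 319 CPM. In the cell cycle list 22 of 23 were transcribed, with Top2a at 379, Ccnb1 at 288 and the G1 cyclin gene Ccnd2 lowest. Housekeeping genes had a median of 309 CPM, with Eef1a1 at 870 and Gapdh at 522 CPM. All 14 genes of the p53 list were transcribed, among them Trp53 with 261 and Mdm2 with 257 CPM. Of 85 cytosolic ribosomal protein genes 82 were transcribed, with a median of 157 CPM and a median CV of 4.96%. The 2 at 0, Rpl35 and Rpl13, lie wholly inside other genes. Hprt stood at 9, 15 and 10 counts, or 1.01 CPM, while E14tg2a is known as an HPRT-deficient line.

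No count in any library was found for 6999 symbols, 27% of the table. Many of these zeros are not silence. Of 2770 genes whose span lies wholly inside other genes, 2763 (99.7%) were at 0. Among protein-coding genes it was 928 of 934 (99.4%), against 2777 of 16182 (17.2%) that overlap no other gene. It held where the exons themselves are clear of all other exons (484 of 486 genes), and where the covering genes lie on the other strand only (320 of 321). All 37 genes inside the annotated span of Fgfr2 were at 0. B2m, inside Patl2, and Tubb3, inside Gm20388, were at 0 for the same measured position. The zeros of Flrt1, Flrt3, Gdf1, Foxf1, Acta1, Sycp3 and Neurod1 share it.

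**Figure D3:**
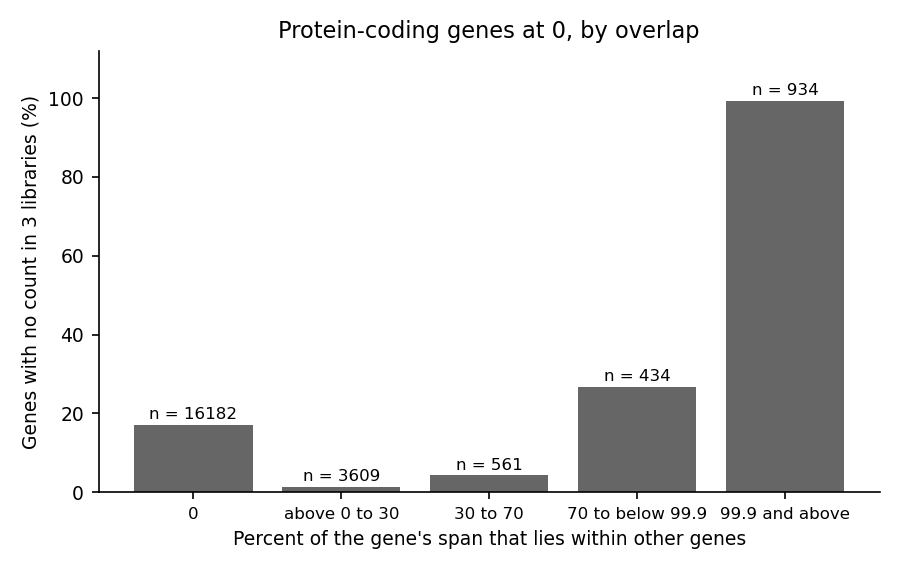
Percent of protein-coding genes with no count in the 3 libraries (bars from 0), by the share of a gene's span that lies within other genes, with the number of genes above each bar. The share at 0 is 17.2% without overlap, 1.39% for a small overlap and 99.4% for genes that are wholly covered.

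Genes with no count and span of their own numbered 4093, of which 3872 overlap no other gene and 2777 of those are protein coding. They held many members of families that other tissues use. For comparison, 51.9% of all genes were transcribed and 27% were at 0, and 58.5% of genes with span of their own were transcribed. Of 1191 olfactory receptor genes 836 had no count and 14 were transcribed, the highest being Olfr986 with 24.8, 27.9 and 23.3 CPM. Of 327 vomeronasal receptors 8 were transcribed, and of 57 keratin-associated proteins, 42 beta-defensins, 22 alpha-defensins, 14 alpha interferons and 26 prolactin-family genes 0 were. Of 39 HOX genes 4 were transcribed, the highest Hoxc13 with 8.93 CPM. Of the 17 HOX genes at 0, 8 lie wholly inside other genes, so their zeros are not read as silence. Among olfactory receptors such genes gave 11 of the 836 zeros, and among keratin-associated proteins 3 of 52. Antibody and T-cell receptor variable segments were at 0 in 92.2% and 83.3% of cases. In the list of tissue-restricted genes 4 of 29 were transcribed and 11 were at 0, among them Umod of the kidney, Csn2 of milk, Cyp3a11 of the liver, Ins1, Gcg, Prl, Krt5 and Krt14. Genes with a count in only 1 library numbered 1377 and in 2 libraries 1054. Near-identical copies in such families can lose reads that they share, and how these were treated is not stated. The 13 protein-coding genes of the mitochondrial genome, which every cell uses, are listed at 0 in all libraries, so their zeros are not read as silence. MicroRNA, small nucleolar and U small nuclear RNA genes and the 24 nuclear non-coding RNAs listed, Malat1 and Xist among them, were not analysed here.

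The promoters of highly transcribed genes held more CpG than those of genes with no count. RefSeq (GRCm38.p6) promoters of 300 bases, 250 before the start and 50 after, could be matched for 13333 genes that have 1 promoter each and span of their own. The ratio of CpG observed to expected had a median of 0.132 in 2068 genes at 0 CPM, 0.237 above 0 to 1 CPM, 0.569 at 1 to 10, 0.791 at 10 to 100 and 0.874 at 100 CPM and above. Ratios of 0.6 or more were found in 4.21% and 90.4% of genes at the 2 ends, and in 49.4% of all 13333. The motif TATAAA on the sense strand, 45 to 16 bases before the start, was in 8.17% of promoters at 0 and 0.973% at 100 CPM and above, and in 3.19% of all. GGGCGG on either strand was in 6.67% and 75.6%, and in 47.4% of all. These are descriptions over promoters, not tests, and a match is not a binding site. The 100 bases before the start show the contrast, with every CG in capitals. The genes were picked for show after their levels were seen. Those of Ncl at chr1:86359456-86359555 (minus strand), Serbp1 at chr6:67266879-67266978 (plus), Tet1 at chr10:62887325-62887424 (minus), Zfp42 at chr8:43307010-43307109 (minus), Sox2 at chr3:34649895-34649994 (plus) and Klf4 at chr4:55532476-55532575 (minus) stand for transcribed genes:
Ncl: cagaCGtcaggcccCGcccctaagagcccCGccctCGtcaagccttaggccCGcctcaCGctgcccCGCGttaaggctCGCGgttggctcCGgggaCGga
Serbp1: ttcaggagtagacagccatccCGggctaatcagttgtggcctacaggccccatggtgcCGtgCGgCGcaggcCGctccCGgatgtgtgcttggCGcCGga
Tet1: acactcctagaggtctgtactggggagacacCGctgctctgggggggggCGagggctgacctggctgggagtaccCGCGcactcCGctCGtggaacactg
Zfp42: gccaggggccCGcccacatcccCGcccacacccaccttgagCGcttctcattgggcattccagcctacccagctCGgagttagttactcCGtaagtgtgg
Sox2: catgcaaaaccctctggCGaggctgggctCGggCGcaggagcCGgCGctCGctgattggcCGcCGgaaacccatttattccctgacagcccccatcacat
Klf4: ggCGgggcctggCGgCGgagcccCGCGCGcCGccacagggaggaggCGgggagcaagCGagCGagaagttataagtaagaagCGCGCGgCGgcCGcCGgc
Those of Umod at chr7:119479263-119479362, Csn2 at chr5:87699426-87699525 and Cyp3a11 at chr5:145879855-145879954 (all minus strand), with no count in any library, follow:
Umod: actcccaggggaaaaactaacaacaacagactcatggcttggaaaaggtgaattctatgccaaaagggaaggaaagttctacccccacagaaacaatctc
Csn2: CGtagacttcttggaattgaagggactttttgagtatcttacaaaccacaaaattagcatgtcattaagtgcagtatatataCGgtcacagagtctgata
Cyp3a11: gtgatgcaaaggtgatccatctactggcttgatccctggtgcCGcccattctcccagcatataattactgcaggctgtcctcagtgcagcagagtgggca
The runs hold 12 CG in Ncl, 8 in Serbp1, 6 in Tet1, 5 in Zfp42, 8 in Sox2 and 16 in Klf4, against 0, 2 and 1 in Umod, Csn2 and Cyp3a11.

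Ribosomal protein mRNAs are known for a terminal oligopyrimidine tract, a run of C and T at the start site. A minority of the promoters in the table held such a run exactly at the listed start. A C at the start, with C or T at the base before it and at the next 3, was found in 10 of the 53 of these genes with a promoter in the table (18.9%), against 2.47% of all 13333 promoters. The other members of the 85 had no promoter that could be used. A run beside a start that is listed a few bases away can be missed, so the share is not that of genes with a tract. CCGGAA on either strand was in 52.8% of the 53 and 19.7% of all. The 40 bases from 30 before to 10 after the start are given for the 5 of the 10 with the highest levels, with the run over the start in capitals. They are Rps15a at chr7:118116138-118116177 (minus strand), Rps18 at chr17:33955656-33955695 (minus), Rplp2 at chr7:141447621-141447660 (plus), Rps10 at chr17:27635235-27635274 (minus) and Rpl38 at chr11:114668550-114668589 (plus):
Rps15a: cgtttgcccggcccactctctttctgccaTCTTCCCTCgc
Rps18: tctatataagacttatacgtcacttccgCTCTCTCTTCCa
Rplp2: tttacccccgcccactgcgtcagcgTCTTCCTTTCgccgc
Rps10: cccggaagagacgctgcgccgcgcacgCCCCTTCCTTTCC
Rpl38: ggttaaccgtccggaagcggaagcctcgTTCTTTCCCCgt
Nascent levels of these genes were 453, 447 and 452 CPM for Rps15a, 277, 271 and 294 for Rps18, 242, 235 and 265 for Rplp2, 201, 213 and 221 for Rps10 and 161, 175 and 170 for Rpl38.

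The 3 libraries ranked genes alike. Across all 25899 genes, which are not independent replicates, Pearson's r of log2(CPM + 1) was 0.998 between a and b, 0.996 between a and c and 0.997 between b and c. Spearman's rho was 0.984, 0.982 and 0.982. Of 11084 genes at a mean of 5 CPM or more, the highest library was less than 1.1 times the lowest for 33.0%, with a median ratio of 1.14. A ratio of 2 or more was found for 52 genes, or 0.469%. In all 52 clone c was the highest (28 genes) or the lowest (24 genes). Without clone c the number was 2, without a 23 and without b 39. The median CV was 7.06%, beside a CV of 4.64% expected from the mean count. A CV taken from 3 libraries can fall below that expected value. The steadiest genes at 50 CPM or more included Mfsd14a with 59.8 CPM in each library, Spint2 with 182 and Mettl14, a subunit of the RNA methyltransferase, with 63.0, 63.1 and 62.8 CPM.

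**Figure D4:**
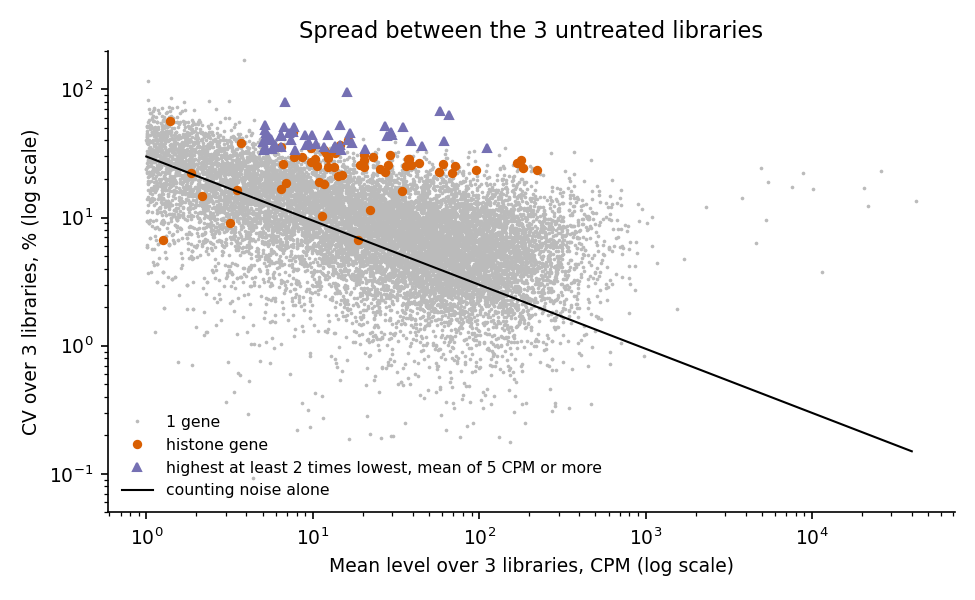
CV over the 3 libraries (log scale) against mean level (log scale), 1 grey point per gene at a mean of 1 CPM or more, with the line for counting noise alone. The 52 genes with a ratio of 2 or more (purple) and the replication-dependent histone genes (orange) lie above most genes of their level.

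The largest ratio was that of Gm10801, with 9.56, 5.28 and 33.6 CPM. Ddx3y, a helicase gene of chromosome Y, followed with 89.9, 91.1 and 17.8 CPM, while Uty with 167, 175 and 146 and Eif2s3y with 79.3, 75.3 and 69.7 CPM, on the same chromosome, differed less. The 4 genes of chromosome Y at 20 CPM or more, Gm47283 among them, were all lowest in c. Gm10800 had 39.0, 32.1 and 103 CPM. Igf1, a growth factor, had 8.27, 11.4 and 3.55 CPM, and Stc2 23.3, 18.8 and 8.25 CPM, both lowest in c. Rnf17, a germ line Tudor gene, had 146, 121 and 69.5 CPM, and the adaptor Rusc2 44.1, 27.9 and 16.6 CPM. The regulators Sox6 with 26.4, 55.0 and 22.5 CPM and Dll1 with 23.5, 17.6 and 10.3 CPM were also in the set. Sox6, Dll1 and Rnf17 were picked after their values were seen.

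Replication-dependent histone genes moved together across the libraries. Of 50 at a mean of 5 CPM or more, 49 were highest in clone c and 48 were lowest in a as well, where 36.8% of all genes at that level were highest in c. The median ratio to clone a was 1.64 for c and 1.20 for b. Hist1h1a had 138, 164 and 236 CPM, Hist1h1c 146, 174 and 234 CPM and Hist1h4c 10.2, 12.9 and 20.6 CPM. It was so in the cluster on chromosome 13 (43 of 44 genes) and in the smaller Hist2 (5 of 5) and Hist4 (1 of 1) clusters. The 19 other genes of the same 10 Mb of chromosome 13 had a median c to a ratio of 1.05, and its 21 histone genes at 20 CPM or more 1.63. Cell cycle genes summed to 2637, 2709 and 2948 CPM over 23 genes, and whether the share of cells in S phase differs between clones was not tested.

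Chromosome 8 also differed between the libraries. It held 4.19% of counts in clone a, 4.58% in b and 5.08% in c, and, leaving out the 20 highest genes, 5.06%, 5.49% and 6.42%, so that the highest was 1.27 times the lowest. On the other autosomes that ratio was at most 1.05. On chromosome Y it was 1.42, with Gm47283 among the 20 genes left out and few genes at 20 CPM or more. With all genes kept, chromosome Y held 0.280%, 0.285% and 0.218% of counts. Of 436 genes of chromosome 8 at 20 CPM or more, 365 (83.7%) were highest in clone c, against 31.2% of the 7143 other autosomal genes, and 327 (75.0%) were lowest in a and highest in c with b between, against 16.4%. The median ratio to a was 1.31 for c and 1.12 for b. The pattern was not the same along the chromosome. The 387 genes that start beyond 20 Mb had medians of 1.33 for c and 1.13 for b, while the 46 that start before 16 Mb had 0.931 and 0.820, with a highest for 35 and b lowest for 41. These limits were set after the values were seen. Outside chromosome 8, and apart from the histone bin of chromosome 13, the median c to a ratio of the 157 other 10 Mb bins with at least 20 such genes lay between 0.900 and 1.05. Bins with fewer genes, down to 10, reached 0.888 (11 genes, on chromosome 1) and 1.09 (11 genes, on chromosome 11). Gain of chromosome 8 is a known change in cultured mouse embryonic stem cells, and DNA copy number was not measured here.

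**Figure D5:**
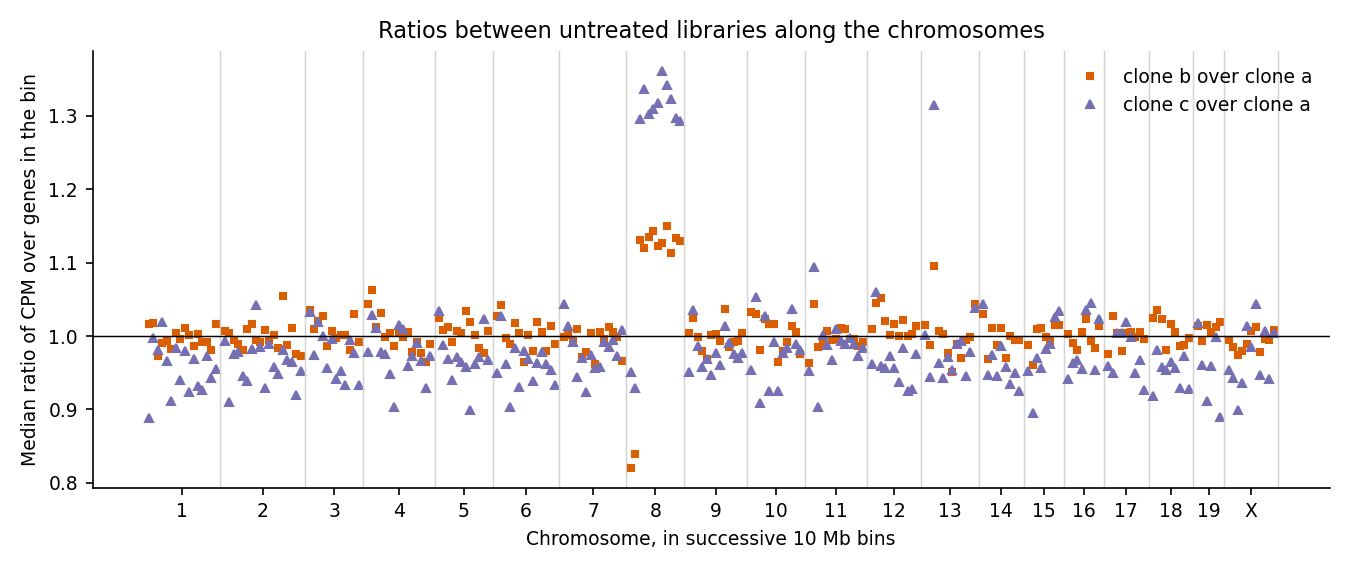
Median ratio of CPM to clone a over genes at 20 CPM or more, for clone b (squares) and clone c (triangles), in successive 10 Mb bins with at least 10 such genes. Most bins lie near 1, those of chromosome 8 lie near 1.31 for c and 1.12 for b after 2 low first bins, and 1 bin of chromosome 13, which holds the histone genes, stands at 1.32 for c.

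Klf2, Zfp42, Fgfr1, Gab1, Ier2 and Junb lie on chromosome 8 and were each highest in clone c. Junb had 31.1, 38.2 and 50.7 CPM, while Zfp42 had 653, 654 and 750 CPM, with b close to a. Whether their spread follows that of the chromosome was not tested. Col4a1 and Col4a2, in the first part of the chromosome, had 146, 96.3 and 140 CPM and 61.9, 38.1 and 55.8 CPM, lowest in b.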

How the data were processed

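The values the authors deposited are unnormalized counts, whole reads for each gene symbol, in 6 libraries, and the 3 columns of untreated cells were used, while 3 columns of treated cells were not. Per the submitters' processing notes, STAR, featureCounts and the mm10 build were used. Versions, strand and the handling of reads shared by overlapping genes were not given in the sources used here. Symbols were matched to GENCODE M21 (25557 once, 38 more than once, 304 not at all). TMM factors and the biological coefficient of variation come from edgeR 4.0.16 in R 4.3.3. No statistical test was run, since there is 1 group, and values are given as mean ± SD over 3 libraries. The design named exon length as the length scale, but counts follow whole gene spans, so span outside other genes leads. The genes named are the 25 highest by CPM, the 15 highest per exon kb, up to 6 highest and 4 lowest members of each list with those at 0, the 12 largest and 8 smallest ratios between libraries, and a set of regulators. Further members are named for their role, picked after their values were seen. The members, the 25 lists and the 26 gene families were chosen with earlier results of these data known. Alternatives were other scalings, thresholds and each library left out. Those on span outside other genes and without chromosomes 8 and Y were added after the data were seen. Some genes that the naming rule allows are left out of the text.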

Additional observations from a re-analysis of the deposited data

How the results depend on the processing

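No paired analysis was possible because only the untreated group is used. With each library left out, the genes transcribed ranged from 13582 to 13597 (13449 with all), those with no count from 7368 to 7591 (6999), the genes holding 50% of counts from 1078 to 1129 (1101), the shared genes among the 25 highest from 24 to 25, the lists with a median above that of all genes from 17 to 18 (18 of 24), the share of chromosome 8 from 4.39% to 4.83% (4.62%), the genes with a 2-fold ratio from 2 to 39 (52), the biological coefficient of variation from 4.16% to 10.5% (8.16%) and the difference in median CpG ratio between transcribed and silent promoters from 0.626 to 0.628 (0.629, and 0.624 with levels per kb of span). With only genes that have span of their own, 4093 had no count. Without the 20 highest genes 1672 genes held 50% of counts and chromosome 8 held 5.66%. Of the 25 highest by CPM, 16 remained per kb of exon, 9 per kb of span and 8 per kb of span outside other genes. The count of genes with a 2-fold ratio was 495 at a mean of 1 CPM, 12 at 20 CPM, 589 for a ratio of 1.5 and 5 for a ratio of 3. The lowest correlation was 0.991 among genes at 1 CPM or more (0.996). Scaling or leaving out a library moved the percentile of a list's median by at most 2.11 points in 23 lists, and length by at most 13.95. The 2-cell-like list, whose median is 0 CPM in each library, is not counted there. Depth limits genes at low levels, and most of all below about 1 CPM. Counting noise was also a large part of the spread at 1 to 10 CPM, with a median CV of 16.8% beside 15.9% expected from the mean count. At 0.1 to 1 CPM the median CV was 47.2% beside 50%, so the expected value is not a lower limit. At 10 to 100 CPM the median CV was 7.06% beside 5.01%.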
